A study of Mus musculus with 2 samples.

Results

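The genes described here build or control the contractile apparatus of smooth muscle. They were 35 genes of smooth muscle contraction, actin binding and control by the transcription factors SRF and myocardin, out of 18193 genes that the platform annotation named alone on at least 1 probe set. All 79 probe sets assigned to exactly 1 of these genes were taken, on both arrays. That rule used no measured value, but the genes were listed with earlier results of these data known. Whole lungs of mouse embryos at embryonic day 15.5 were profiled on a one-colour Affymetrix expression array. One array held a pool of TAZ-deficient lungs and the other a pool of lungs from their wild type littermates, each pool mixed from 4 total RNA samples. TAZ, the product of Wwtr1, is held in check by the Hippo kinase cascade and activates transcription through TEAD factors. The sources used here do not say how the TAZ deficiency was made or in which cells it acts. The comparison asks which transcripts differ in the lung before birth when TAZ is missing.

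Each group was 1 array of 1 pool, so no difference below has a replicate check, a p-value or a standard deviation. Precision is limited by having 1 array per pool. Values are deposited linear signals (intensity units). The floor was 15.2, which is the median non-control signal, and a gene was counted as measured when its brightest probe set exceeded the floor on either array. Signals below the floor were raised to it, and log2 ratios are TAZ-deficient over wild type, so that a fold with 1 signal below the floor is a lower bound, written "at least". Signals of different probe sets are not comparable with each other, and each is compared only with itself across the pools. Of 18193 genes, 12032 were measured, and the medians of all signals were 15.1 on the TAZ-deficient array and 15.2 on the wild type array. The brightest Wwtr1 probe set read 11.3 in the TAZ-deficient pool and 791.2 in the wild type pool, at least 52.1-fold lower. For Actb, the 3′ control signal divided by the 5′ one was 1.21 on the TAZ-deficient array and 1.23 on the wild type array. For Gapdh this ratio was 0.82 on the TAZ-deficient array and 0.79 on the wild type array. For the transferrin receptor it was higher, at 2.56 on the TAZ-deficient array and 2.63 on the wild type array.

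Smooth muscle contracts when calcium switches on myosin light chain kinase, which lets smooth muscle myosin pull on actin filaments anchored in dense bodies and at the cell edge. SRF binds a short DNA element called the CArG box in the promoters of many of these genes. Its cofactor myocardin drives the smooth muscle programme, while the related factors MRTF-A and MRTF-B follow the state of actin. In the fetal lung smooth muscle forms around the growing airways and blood vessels, and the same actin-binding proteins, in other isoforms, serve the cytoskeleton of nearly every cell. RNA from whole lung was measured, so fewer smooth muscle cells and less RNA per cell cannot be told apart.

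Several markers of differentiated smooth muscle, among them Cnn1, Myh11, Tagln and Smtn, were lower in the TAZ-deficient pool, whereas Acta2, the most familiar marker, was within 1.2-fold of wild type. The transcripts of SRF and myocardin were higher at their brightest probe sets. Of the 35 genes, 33 were measured. Only Synpo2 and Cnn1 were at least 1.5-fold lower, 2 of 33 (6.06%) beside 1.47% of all measured genes. None was at least 1.5-fold higher, beside 1.28% of all measured genes. At 1.2-fold, 12 of 33 were lower (36.4%) beside 10.6% of all measured genes, and 3 were higher (9.09%) beside 8.03%. The 12 were Synpo2, Cnn1, Fhl2, Myh11, Pgm5, Pdlim3, Fhl1, Des, Tagln, Kcnmb1, Smtn and Tgfb1i1, and the 3 were Myocd, Srf and Flna. Each of these 15 genes kept the sign of its ratio under every setting that still measured it, but few settings could have turned it. A changed floor or a pseudocount cannot turn the sign of a probe set. Of the 12 lower genes, 11 had 1 probe set above the floor, so probe set choice could not turn theirs. The second Myocd probe set had the opposite sign (log2 ratio -0.34). The log2 ratio was below 0 for 24 of 33 genes (72.7%), beside 52.9% of all measured genes, and the median was -0.08, beside -0.01 over all measured genes.

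**Figure D1:**
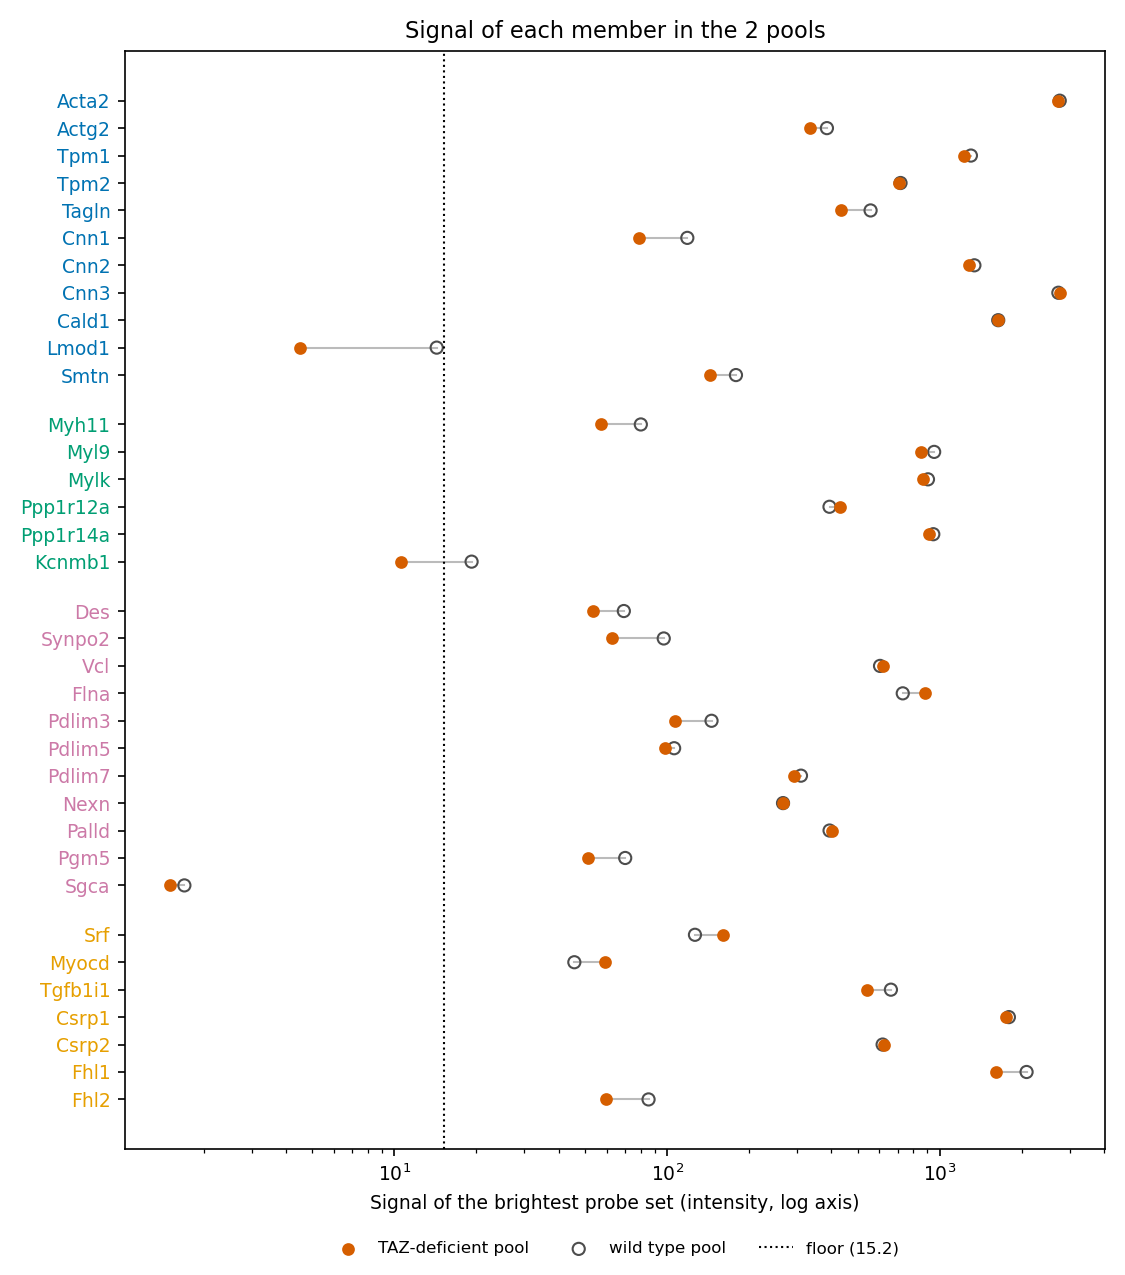
Signal of the brightest probe set (intensity, log axis) of each of the 35 genes in the TAZ-deficient pool (filled) and the wild type pool (open), 1 array each, with gene names coloured by role. The dotted line is the floor of 15.2; distances between the paired points are small for Acta2, Cald1 and Nexn and wider for Cnn1, Synpo2 and Myh11, while Lmod1 and Sgca lie below the floor in both pools.

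Dim probe sets spread more widely than bright ones, so the counts were also split at 106.3 signal units, the 75th percentile of all non-control signals. Below it, 7 of 9 genes were at least 1.2-fold lower, beside 18.7% of the 5126 measured genes in that class, and 1, Myocd, was at least 1.2-fold higher, beside 14.3%. At or above it, 5 of 24 were lower, beside 4.53% of 6906 genes, and 2, Srf and Flna, were higher, beside 3.40%. The 5 bright genes were Pdlim3, Fhl1, Tagln, Smtn and Tgfb1i1. Among the 750 genes with a mean signal of at least 1000, 1 had a lower ratio than Fhl1. Of the 6906 genes in the bright class, 48 had a ratio lower than that of Pdlim3 and 115 one lower than that of Tagln.

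**Figure D2:**
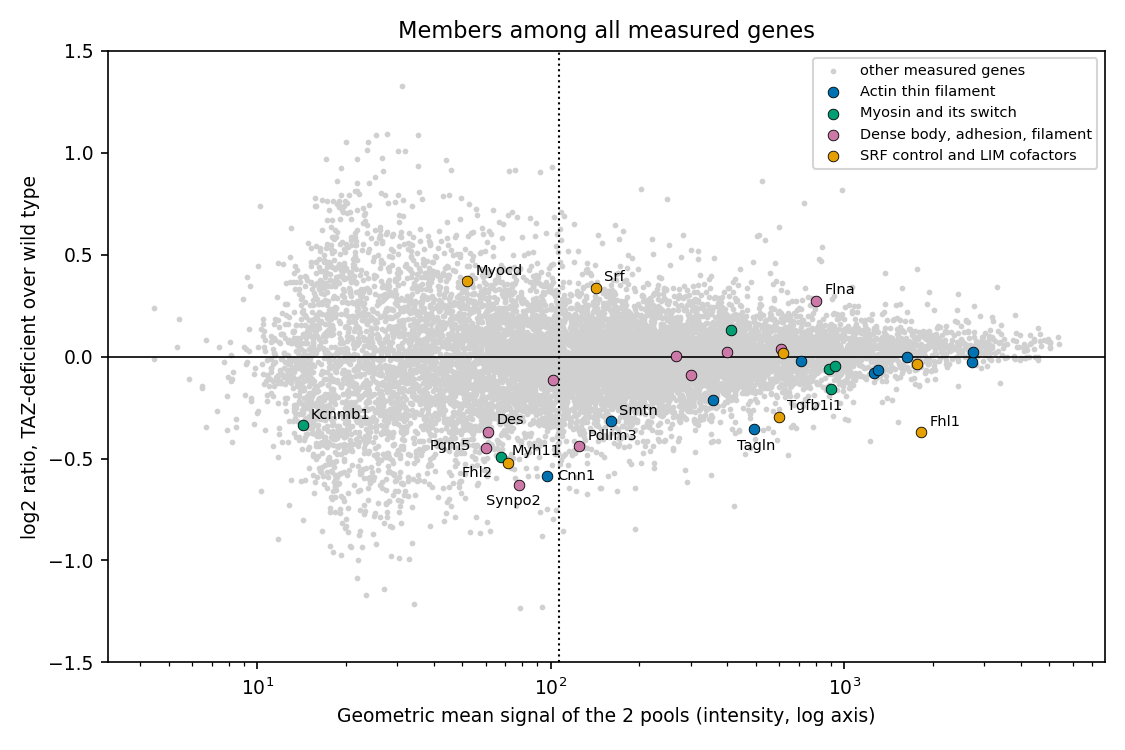
Log2 ratio (TAZ-deficient over wild type) against the geometric mean signal of both pools (intensity, log axis) for all 12032 measured genes (grey) and the 33 measured smooth muscle and SRF-dependent genes, coloured by role, with names where the ratio passed 1.2-fold. The dotted line marks 106.3 signal units, 8 genes lie outside the plotted range of 1.5 in size, and 12 named genes lie below 0 while Myocd, Srf and Flna lie above 0.

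Among proteins of the actin thin filament, the smooth muscle form of calponin was lower and its paralogues were close to wild type. Cnn1, calponin of differentiated smooth muscle, which binds actin and restrains myosin, read 79.0 in the TAZ-deficient pool and 118.6 in the wild type pool (log2 ratio -0.59). This lies just past the threshold of 1.5-fold, and it fell short of it under quantile normalization, cyclic loess and median centring. Cnn2, a calponin found in many non-muscle cells, read 1278.1 in the TAZ-deficient pool and 1337.8 in the wild type pool, 1.05-fold lower. Cnn3, the acidic calponin of non-muscle cells, read 2760.6 in the TAZ-deficient pool and 2717.8 in the wild type pool, a positive ratio that turned negative under quantile normalization and cyclic loess. Its 6 probe sets had log2 ratios from -0.27 to 0.30, and 5 of the 6 carry the suffix of sets that can cross-hybridise.

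Tagln, also called SM22 and an early marker of smooth muscle, read 434.8 in the TAZ-deficient pool and 557.0 in the wild type pool, 1.28-fold lower. Smtn, which encodes smoothelin, a protein of contractile smooth muscle, read 143.7 in the TAZ-deficient pool and 178.8 in the wild type pool, 1.24-fold lower. Both had a single probe set. The smooth muscle actins differed less. Acta2, the actin of vascular and airway smooth muscle, read 2701.5 in the TAZ-deficient pool and 2749.2 in the wild type pool. Its suffix marks a probe set common to several transcripts, and the other 2 probe sets of Acta2 were below the floor on both arrays, at 1.1 and 0.4 in the TAZ-deficient pool and 5.6 and 0.9 in the wild type pool. Actg2, the enteric smooth muscle actin, read 332.7 in the TAZ-deficient pool and 385.3 in the wild type pool, 1.16-fold lower.

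The tropomyosins, which lie along the actin filament and whose splice forms are shared between muscle and other cells, were close to wild type at their bright probe sets. Tpm1 read 1227.5 in the TAZ-deficient pool and 1299.0 in the wild type pool, and Tpm2 read 707.7 in the TAZ-deficient pool and 717.2 in the wild type pool. Each had a dim probe set with a lower ratio. That of Tpm1 read 25.1 in the TAZ-deficient pool and 35.9 in the wild type pool (log2 ratio -0.52), and that of Tpm2 read 16 in the TAZ-deficient pool and 24.3 in the wild type pool (log2 ratio -0.60). The 3 brighter Tpm2 sets and 1 Tpm1 set carry suffixes of sets that read several transcripts, so splice forms are not separated there. Cald1, caldesmon, an actin-binding brake on contraction with a smooth muscle and a non-muscle form, read 1634.6 in the TAZ-deficient pool and 1635.9 in the wild type pool, a ratio that turned positive under median centring. Its other 2 probe sets above the floor had log2 ratios of -0.14 and -0.23. Lmod1, leiomodin, which starts actin filaments in smooth muscle, was below the floor in both pools at 4.5 in TAZ-deficient and 14.3 in wild type lung, and no fold is given.

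Of the 6 genes for the motor, its switch and its ion channel, Myh11 and Kcnmb1 were at least 1.2-fold lower and none was higher. Of all measured genes, 10.6% were lower and 8.03% higher by that fold. Myh11, that heavy chain and the most specific marker of the lineage, read 57.0 in the TAZ-deficient pool and 80.1 in the wild type pool, 1.41-fold lower, and its second probe set was below the floor at 6.3 in the TAZ-deficient pool and 1.8 in the wild type pool. Myl9, the regulatory light chain, read 852.3 in the TAZ-deficient pool and 952.6 in the wild type pool, 1.12-fold lower. The enzymes that set its phosphorylation lay close to wild type. Mylk, myosin light chain kinase, read 868.1 in the TAZ-deficient pool and 904.1 in the wild type pool, with log2 ratios from -0.06 to 0.04 at its 3 probe sets. Ppp1r14a, or CPI-17, a muscle inhibitor of the opposing phosphatase, read 914.3 in the TAZ-deficient pool and 945.6 in the wild type pool. Ppp1r12a, the targeting subunit of that phosphatase, read 430.9 in the TAZ-deficient pool and 393.8 in the wild type pool, and its 4 probe sets ran from -0.26 to 0.20, with 2 below 0 and 2 above. Kcnmb1, the smooth muscle subunit of the large calcium-activated potassium channel, was close to the floor. It read 10.6 in the TAZ-deficient pool and 19.2 in the wild type pool, at least 1.26-fold lower, and its second probe set read 8.3 in the TAZ-deficient pool and 16.9 in the wild type pool.

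Of 10 measured genes of dense bodies, Z-disc-like structures, adhesions and intermediate filaments, 4 were at least 1.2-fold lower and 1 was higher, beside 10.6% and 8.03% of all measured genes. The median log2 ratio of -0.10 became 0.01 with the floor raised to 106.3, where 6 genes were left. Synpo2, an actin-bundling protein of dense bodies and Z-discs, had the lowest ratio of the 33 genes with the floor at 15.2, although that of Kcnmb1 is only a bound and was lower (-0.86) with the floor at 4.3. It read 62.9 in the TAZ-deficient pool and 97.2 in the wild type pool, 1.55-fold lower, while its other 3 probe sets were below the floor in both pools, at 8.0 to 13.9 in TAZ-deficient and 11.8 to 13.9 in wild type lung. Pgm5, aciculin, a muscle adhesion protein related to phosphoglucomutase, read 51.5 in the TAZ-deficient pool and 70.2 in the wild type pool, 1.36-fold lower. Pdlim3, a PDZ and LIM domain protein that binds alpha-actinin in muscle, read 107.2 in the TAZ-deficient pool and 145.5 in the wild type pool, also 1.36-fold lower. Des, desmin, the intermediate filament protein of muscle, read 53.7 in the TAZ-deficient pool and 69.4 in the wild type pool, 1.29-fold lower. Synpo2, Pdlim3 and Des are known from heart and skeletal muscle as well as smooth muscle.

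The other genes in this role included 1 at least 1.2-fold higher. Flna, filamin A, a crosslinker of actin networks in most cells, was 1.21-fold higher, at 884.0 in the TAZ-deficient pool and 730.8 in the wild type pool. Vcl, vinculin of focal adhesions, read 618.3 in the TAZ-deficient pool and 603.3 in the wild type pool, but its second probe set read 91.5 in the TAZ-deficient pool and 112.3 in the wild type pool, and the median over both was negative. Palld, palladin, an actin scaffold, read 400.7 in the TAZ-deficient pool and 394.0 in the wild type pool. Nexn, nexilin, read 266.7 in the TAZ-deficient pool and 266.0 in the wild type pool. The broadly expressed paralogues of Pdlim3 were mixed across probe sets. Pdlim5 read 97.9 in the TAZ-deficient pool and 106.1 in the wild type pool, with 6 probe sets above the floor from -0.51 to 0.28, and Pdlim7 read 291.2 in the TAZ-deficient pool and 309.5 in the wild type pool, with 3 from -0.09 to 0.20. The ratio of Pdlim5 turned positive without shared probe sets and that of Pdlim7 with the median over probe sets. Sgca, a sarcoglycan of striated muscle, was at background, at 1.5 in the TAZ-deficient pool and 1.7 in the wild type pool.

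**Figure D3:**
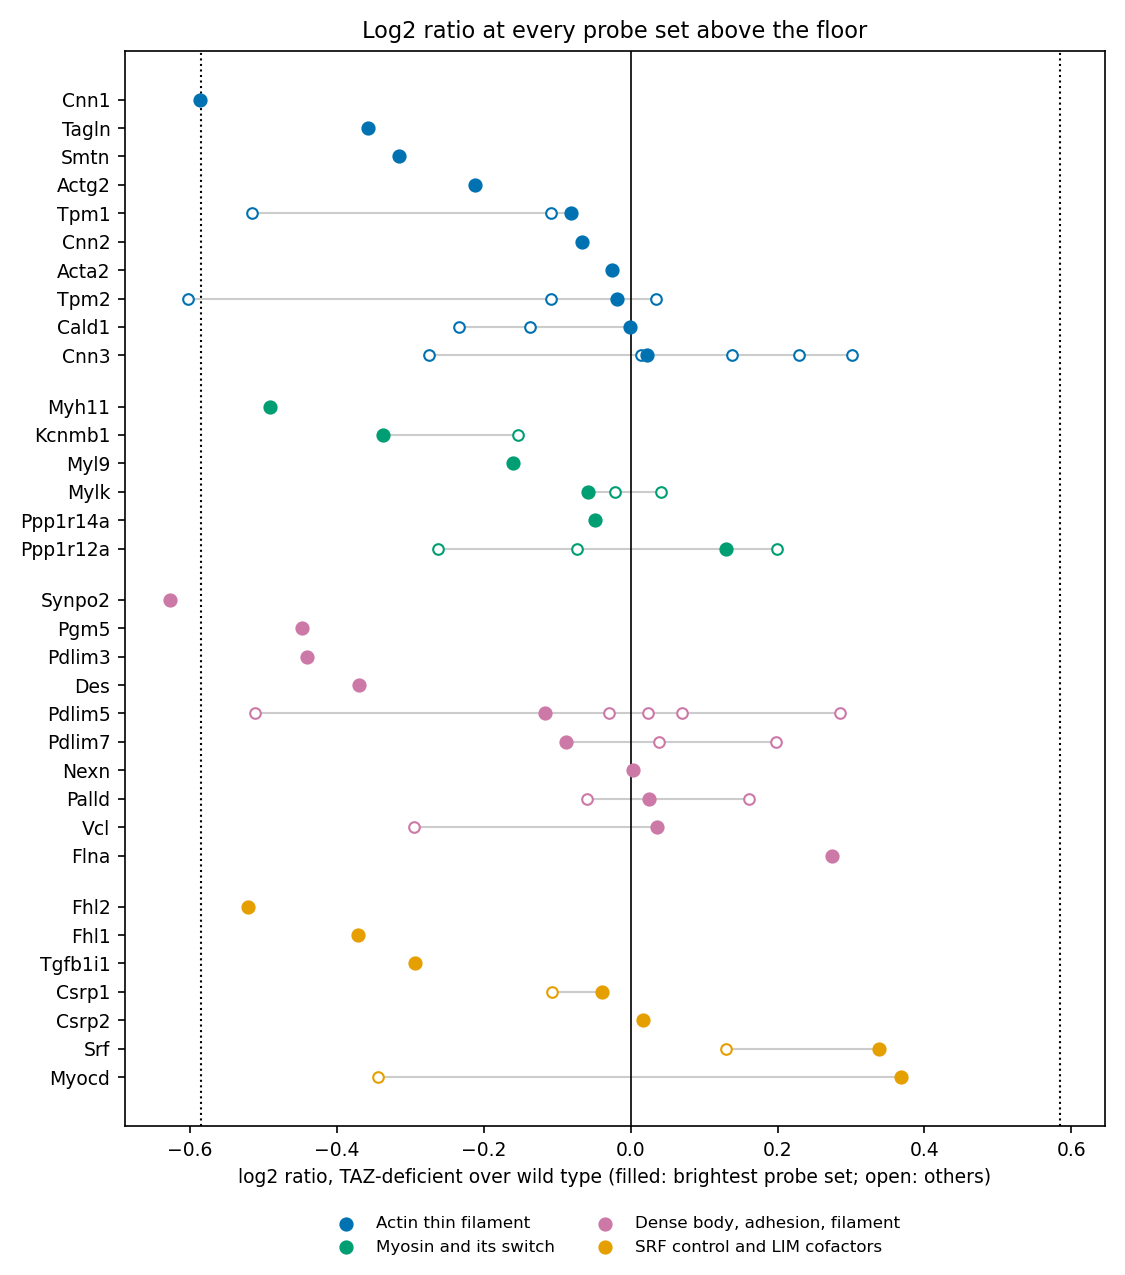
Log2 ratio (TAZ-deficient over wild type) at all 64 probe sets above the floor, by gene and role, with the brightest probe set of a gene filled and others open. The dotted lines mark 1.5-fold; Cnn1, Tagln, Smtn, Myh11, Synpo2, Pgm5, Pdlim3, Des, Fhl2, Fhl1 and Tgfb1i1 rest on 1 probe set each, and Pdlim5, Cnn3 and Myocd have probe sets on both sides of 0.

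The transcription factor and its muscle cofactor were not lower at their brightest probe sets. Srf read 159.9 in the TAZ-deficient pool and 126.5 in the wild type pool, 1.26-fold higher, and its second probe set read 98.3 in the TAZ-deficient pool and 89.8 in the wild type pool, so that both probe sets were higher. Myocd, myocardin, read 59.0 in the TAZ-deficient pool and 45.7 in the wild type pool, 1.29-fold higher, but its dim second probe set read 12.2 in the TAZ-deficient pool and 19.3 in the wild type pool, at least 1.27-fold lower. The median of both Myocd probe sets was a log2 ratio of 0.01. The Srf probe set with the larger ratio carries the suffix of a shared set.

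The LIM domain proteins that work with SRF or at adhesions fell into lower and near-equal genes. Fhl2, a LIM-only cofactor known both to bind SRF and to be an SRF target, read 59.6 in the TAZ-deficient pool and 85.5 in the wild type pool, 1.43-fold lower. Fhl1, its paralogue abundant in muscle, read 1606.5 in the TAZ-deficient pool and 2078.2 in the wild type pool, 1.29-fold lower. Tgfb1i1, or Hic-5, a focal adhesion protein of smooth muscle, read 539.4 in the TAZ-deficient pool and 661.3 in the wild type pool, 1.23-fold lower. Csrp1, which promotes SRF and GATA activity in smooth muscle, read 1742.6 in the TAZ-deficient pool and 1789.9 in the wild type pool, with both probe sets slightly negative. Csrp2, a related protein of vascular smooth muscle, read 624.1 in the TAZ-deficient pool and 616.6 in the wild type pool, and the sign turned under quantile normalization.

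SRF acts through the CArG box, so promoter windows of 300 bases (250 before and 50 after the annotated start, RefSeq, GRCm38.p6) were searched for its strict form on both strands, on which the pattern reads alike. Windows were held for 28 of the 35 genes, and 6 of them carried a box (21.4%), beside 1.81% of 27025 genes in the promoter table. The 6 were Fhl2, Fhl1, Myl9, Cnn2, Vcl and Srf. The 35 genes were listed partly for control by SRF, so the 2 shares are no test of the box in these genes. Among genes at least 1.2-fold lower, 2 of 9 with a window had a box, and among the others 4 of 19. The 19 others include Lmod1 and Sgca, which were below the floor and have no ratio. The 7 genes without a window were Tagln, Myh11 and Tgfb1i1 of the lower genes, and Actg2, Nexn, Myocd and Csrp2. Whether these carry a box was not tested. Genes with a box lay on either side of 0. TEAD factors, the partners of TAZ, bind the M-CAT element, searched as CATTCC on both strands. It was found for 10 of 28 genes (35.7%) beside 16.6% of all genes. These were 2 of 9 of the lower genes (Smtn and Pdlim3) and 8 of 19 others, Acta2, Flna and the unmeasured Lmod1 among them. Vcl alone held both elements, 227 and 143 bases before the start, without overlap. A match describes letters in the window and was not tested as a binding site.

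Windows are printed for Fhl2, the gene at least 1.4-fold different that has a box, and, chosen after the values were seen, for Srf, Fhl1 and Cnn2, which were higher, lower and nearly equal in the TAZ-deficient pool. Letters run 5′ to 3′ on the strand of the gene and capitals mark the CArG box. Fhl2 has 2 annotated starts with boxes 96 and 31 bases before them, Srf has boxes 82 and 62 bases before its start, and those of Fhl1 and Cnn2 begin 102 and 56 bases before theirs.
Fhl2, chr1:43196712-43197011, minus strand: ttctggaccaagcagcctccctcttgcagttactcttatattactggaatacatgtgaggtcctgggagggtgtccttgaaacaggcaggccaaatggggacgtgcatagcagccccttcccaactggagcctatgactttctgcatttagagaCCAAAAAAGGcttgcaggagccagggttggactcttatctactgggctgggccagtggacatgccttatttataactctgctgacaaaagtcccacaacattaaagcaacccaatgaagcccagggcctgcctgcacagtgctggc
Fhl2, chr1:43163912-43164211, minus strand: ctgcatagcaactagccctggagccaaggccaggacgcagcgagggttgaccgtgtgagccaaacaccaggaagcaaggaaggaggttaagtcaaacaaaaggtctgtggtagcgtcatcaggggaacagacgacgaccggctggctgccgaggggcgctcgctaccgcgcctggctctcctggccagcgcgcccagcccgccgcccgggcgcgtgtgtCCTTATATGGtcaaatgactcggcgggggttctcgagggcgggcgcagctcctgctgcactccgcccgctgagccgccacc
Srf, chr17:46556113-46556412, minus strand: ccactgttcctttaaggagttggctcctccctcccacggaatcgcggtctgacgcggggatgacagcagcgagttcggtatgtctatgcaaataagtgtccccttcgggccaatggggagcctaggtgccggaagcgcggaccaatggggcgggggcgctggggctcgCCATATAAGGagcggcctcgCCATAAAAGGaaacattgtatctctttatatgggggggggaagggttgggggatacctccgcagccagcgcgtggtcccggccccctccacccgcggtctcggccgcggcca
Fhl1, chrX:56779433-56779732, plus strand: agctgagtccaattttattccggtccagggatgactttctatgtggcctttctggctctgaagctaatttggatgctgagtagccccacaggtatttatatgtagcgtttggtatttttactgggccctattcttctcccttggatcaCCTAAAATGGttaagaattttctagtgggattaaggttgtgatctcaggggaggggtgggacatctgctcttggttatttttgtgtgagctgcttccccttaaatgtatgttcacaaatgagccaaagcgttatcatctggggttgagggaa
Cnn2, chr10:79988350-79988649, plus strand: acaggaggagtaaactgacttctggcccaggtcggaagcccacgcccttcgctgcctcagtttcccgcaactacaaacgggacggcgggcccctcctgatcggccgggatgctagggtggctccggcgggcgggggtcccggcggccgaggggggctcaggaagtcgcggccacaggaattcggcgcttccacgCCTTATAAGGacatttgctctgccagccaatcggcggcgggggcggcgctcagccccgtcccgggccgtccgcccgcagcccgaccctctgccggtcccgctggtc

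Agreement between probe sets of a gene is the only error these arrays allow, and it holds no variation between embryos, pools or labelling reactions. It was computed as the SD, over 5637 genes, of the difference in log2 ratio between a gene's brightest and next probe set above the floor, scaled to 1 probe set, and came to 0.20. Where both were at or above 106.3 signal units (2418 genes) it was 0.13, and in the remaining 3219 genes it was 0.24. Of the 33 smooth muscle and SRF-dependent genes, 14 had several probe sets above the floor. All were below 0 for 4 of them (Tpm1, Cald1, Kcnmb1 and Csrp1), all above 0 for 1 (Srf), and signs were mixed for 9. Of the 12 genes at least 1.2-fold lower, 11 rested on 1 probe set above the floor, the exception being Kcnmb1. Over all 64 probe sets above the floor, 18 were at least 1.2-fold lower, beside 11.7% of 21294 probe sets of 1 gene above the floor, and 5 at least 1.2-fold higher, beside 9.21%. Their median log2 ratio was -0.06.

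Of 42 measured further genes of smooth muscle and actomyosin, 5 were at least 1.2-fold lower, beside 10.6% of all measured genes. At least 1.2-fold higher was 1 of the 42, Jph2, beside 8.03%. Jph2 read 67.3 in the TAZ-deficient pool and 49.9 in the wild type pool. At least 1.5-fold lower was 1 of the 42, beside 1.47%. The median log2 ratio of -0.03 was slightly positive with the raised floor. Mustn1, a small nuclear protein of the musculoskeletal system, read 23.3 in the TAZ-deficient pool and 39.5 in the wild type pool, 1.70-fold lower. The non-muscle myosin Myh10 was 1.16-fold higher (1474.9 in the TAZ-deficient pool and 1267.3 in the wild type pool). The cytoskeletal actin Actb read 3599.5 in the TAZ-deficient pool and 3600.0 in the wild type pool, a ratio that turned positive under median centring. Elk1, Mrtfa and Mrtfb are not among the 42. Elk1, an ETS partner of SRF, was 1.55-fold higher at 1 dim probe set (32.6 in the TAZ-deficient pool and 21.0 in the wild type pool). Another Elk1 probe set read 21.8 in the TAZ-deficient pool and 22.4 in the wild type pool. Of all measured genes, 1.28% were at least 1.5-fold higher. Mrtfa, encoding MRTF-A, read 138.6 in the TAZ-deficient pool and 132.1 in the wild type pool, and Mrtfb read 362.7 in the TAZ-deficient pool and 339.4 in the wild type pool.

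SRF also serves the immediate early genes, through ETS partners instead of myocardin. Of 11 measured, 1 was at least 1.2-fold lower and 1 higher, beside 10.6% and 8.03% of all measured genes, and none reached 1.5-fold. The median of -0.02 turned positive under cyclic loess, with the raised floor (0.03) and without shared probe sets (0.04). The brightest were Mcl1 (1337.7 in the TAZ-deficient pool and 1220.7 in the wild type pool) and Jun (454.7 in the TAZ-deficient pool and 470.3 in the wild type pool). Of 28 signals and factors known to act on lung mesenchyme and its smooth muscle, 2 were at least 1.5-fold lower, Gli1 and Heyl. None was higher by that fold, and the shares of all measured genes were 1.47% and 1.28%. At 1.2-fold, 5 were lower, beside 10.6%, and 1, Notch3, was higher, beside 8.03%. The 5 were Gli1, Heyl, Hey1, Hey2 and Tbx5. Gli1 was dim, at 40.0 in the TAZ-deficient pool and 64.7 in the wild type pool. Heyl, a Notch target expressed in vascular smooth muscle, was lower at all 3 probe sets, with log2 ratios of -0.65, -0.50 and -0.41. Notch3, the receptor of vascular smooth muscle, was higher at both of its probe sets, 242.4 in the TAZ-deficient pool against 189.2 in the wild type pool and 49.5 in the TAZ-deficient pool against 40.4 in the wild type pool. The list's median of 0.02 turned negative under quantile normalization and as the median over probe sets (-0.06).

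Several heart muscle transcripts were lower in the TAZ-deficient pool. In mice, heart-type muscle cells line the pulmonary veins inside the lung, and pieces of heart can come along with dissected lung. Of 20 cardiac muscle markers, 9 were above the floor, with a median log2 ratio of -0.34. Of these 9, 6 were at least 1.2-fold lower and 1 was higher, beside 10.6% and 8.03% of all measured genes. All but Actc1 were in the dim class, where 5 of 8 were at least 1.2-fold lower beside 18.7% of genes, and 1 was higher beside 14.3%. The summed signal was 663.4 in the TAZ-deficient pool and 855.4 in the wild type pool, and without Actc1 228.3 in the TAZ-deficient pool and 303.5 in the wild type pool. At least 1.5-fold lower were Myl7, Myh7 and Tnnt2, beside 1.47% of all measured genes. They read 46.2, 15.4 and 20.1 in the TAZ-deficient pool and 83.6, 24.9 and 30.6 in the wild type pool, so Myh7 was close to the floor of 15.2. Mybpc3 was at least 1.55-fold higher (23.6 in the TAZ-deficient pool and 13.5 in the wild type pool), beside 1.28% of all measured genes past 1.5-fold. The other 11 were below the floor on both arrays, among them the defining genes Myh6 (9.4 in the TAZ-deficient pool and 12.6 in the wild type pool) and Nkx2-5 (11.0 in the TAZ-deficient pool and 7.8 in the wild type pool). Actc1, cardiac actin, which embryonic smooth muscle also expresses, was the brightest at 435.1 in the TAZ-deficient pool and 551.9 in the wild type pool. Of 14 skeletal muscle markers, Des included, 5 were above the floor, with a summed signal of 121.7 in the TAZ-deficient pool and 149.3 in the wild type pool and a median of -0.05. Ckm, the muscle creatine kinase, was at least 1.53-fold lower at 10.6 in the TAZ-deficient pool and 23.3 in the wild type pool, while another probe set read 19.6 in the TAZ-deficient pool and 10.1 in the wild type pool. The part of striated muscle RNA in the values of the smooth muscle and SRF-dependent genes, Des, Synpo2, Pdlim3, Fhl1 and Fhl2 among them, was not tested.

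Markers of pericytes, which share a lineage and several genes with vascular smooth muscle, lay on both sides of 0. Of 10 measured, 1 was at least 1.2-fold lower and 2 were higher, beside 10.6% and 8.03% of all measured genes. Below 0 were 5 of the 10, beside 52.9%. The median of -0.01 turned positive under quantile normalization and cyclic loess and was about 0 without shared probe sets. The brightest were Pdgfrb (523.6 in the TAZ-deficient pool and 510.1 in the wild type pool) and Mcam (258.5 in the TAZ-deficient pool and 265.8 in the wild type pool). Medians were 0.02 for 13 fibroblast markers, negative under quantile normalization, cyclic loess and both other choices of probe set (Vim 3555.8 in the TAZ-deficient pool and 3296.0 in the wild type pool), -0.07 for 11 endothelial markers (Esam 655.4 in the TAZ-deficient pool and 685.9 in the wild type pool), and 0.05 for 11 epithelial markers (Sftpc 4121.5 in the TAZ-deficient pool and 4142.5 in the wild type pool). All 11 epithelial markers were above the floor, as lung tissue would give. The 7 measured mesothelial markers had a median of 0.18. Below 0 were 8 of 11 endothelial, 6 of 13 fibroblast, 5 of 11 epithelial and 2 of 7 mesothelial markers, beside 52.9% of all measured genes. Of the endothelial markers, 0 were at least 1.2-fold lower, beside 10.6%.

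**Figure D4:**
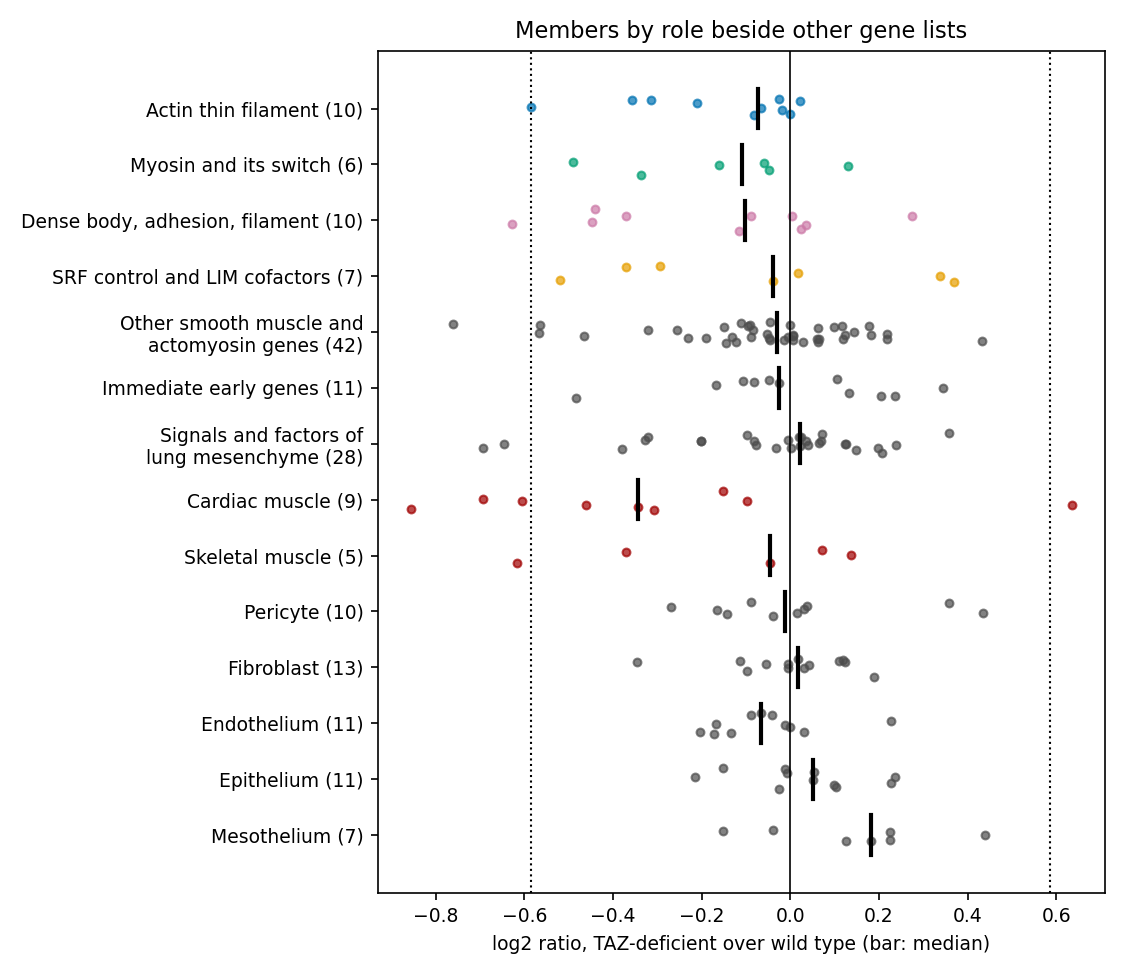
Log2 ratio (TAZ-deficient over wild type) for the measured genes of each role and of other gene lists, with the number of genes in brackets, 1 point a gene and a black bar at the median. The dotted lines mark 1.5-fold; medians by role are -0.07, -0.11, -0.10 (positive with the raised floor) and -0.04 from top to bottom, that of cardiac muscle is -0.34, and the other medians lie between -0.07 and 0.18.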

How the data were processed

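The series holds 2 arrays of whole lung RNA. Biotin-labelled cRNA was made from oligo(dT)-primed cDNA, per the labels' protocols. The submitters' processing notes list the tools GCOS and MAS5. Deposited intensity values are the authors' own, on a linear scale, never negative, and have the same trimmed mean on both arrays. Of 45101 probe sets, 64 were controls, 34945 had 1 gene, 932 several and 9160 none listed, and those with several or none were not used. Symbols were updated through Entrez identifiers (34741 probe sets) to the GRCm38.p6 RefSeq annotation. Log2 ratios were computed from the deposited values. The brightest probe set by mean log2 signal stood for a gene. Each group had 1 array, so fold sizes (1.5 and 1.2) were counted beside all measured genes and no test was made. All 35 members are named, and other lists give genes past 1.5-fold or else the brightest. Further examples (Jph2, Myh10, Actb, Elk1, Mrtfa, Mrtfb, Notch3, Hey1, Hey2, Tbx5, Actc1, Myh6 and Nkx2-5) were chosen after their values were seen. Protein sequences were not used here, and 1 other gene list is not reported here. The members and lists were chosen with earlier results of these data known. Quantile normalization and cyclic loess used limma 3.58.1. The counting was tested on simulated data.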

Additional observations from a re-analysis of the deposited data

How the results depend on the processing

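With 2 arrays and 1 per group, no replicate could be left out and no paired analysis was possible because each group has a single array. The count of genes at least 1.5-fold lower, 2 on the deposited scale, was 1 under quantile normalization, cyclic loess and median centring, where Synpo2 alone passed, 4 with a floor lowered to the 25th percentile, and 0 with a floor raised to the 75th or with a pseudocount of 16. The share of all measured genes past that fold moved too, to 7.14% with the lowered floor, 0.17% with the raised one and 0.62% with the pseudocount, against 1.47% with the floor at 15.2. Without shared probe sets 3 of 27 passed, beside 1.74% of all genes. With the threshold at 1.2-fold, 12 were lower and 3 higher. No gene was at least 1.5-fold higher under the 8 other settings. The number of ratios below 0 ran from 17 of 25 with the raised floor to 26 of 33 under quantile normalization. Their median log2 ratio was below 0 under all 8, and that over all genes lay between -0.02 and 0. Single ratios that moved by more than the probe set error were those of Kcnmb1 (-0.86 with the lower floor), Cnn1 (-0.16 with the higher floor), Myocd (0.01 as the median of its probe sets) and, when shared sets were dropped, Srf (0.13) and Tpm2 (-0.60). Signals near the floor limit what can be said of Kcnmb1, Lmod1 and Sgca.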
